A study of Mus musculus with 10 samples.

Results

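Mtf2, also named Pcl2, was mapped by chromatin immunoprecipitation sequencing (ChIP-seq) in pro-erythroblasts of the mouse fetal liver. The peaks close to transcription starts are described here. The regions were chosen by position from the Mtf2 peak list of WT CD71+Ter119-/lo cells: an autosomal peak was kept when it shared at least 1 base with the 5 kb on either side of a transcription start site (TSS) of a protein-coding gene. Of 28918 Mtf2 peaks, 25805 lay on autosomes, and 1905 of these were kept, or 7.38% (95% Wilson interval 7.07% to 7.71%). They touched the windows of 1786 of 21418 autosomal protein-coding genes, a share of 8.34%. The TSS of every transcript counted, 67112 distinct autosomal positions, so a TSS could lie inside its gene. The remaining 23900 autosomal Mtf2 peaks served for comparison. A further 111 of the 3113 peaks on X and Y lay as near a TSS and were not among the 1905.

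Mtf2 is an accessory subunit of Polycomb repressive complex 2 (PRC2), the enzyme complex that places trimethylation on lysine 27 of histone H3 (H3K27me3), a mark of silenced genes. PRC2 is known to gather at CpG islands, stretches of DNA rich in unmethylated CG pairs that cover many promoters, and Mtf2 is known to bind such CG-rich DNA. In red cell development, pro-erythroblasts carry little of the surface protein Ter119 and mature into erythroblasts that carry much of it, while both express the transferrin receptor CD71.

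The study had 10 libraries from fetal livers at e14.5 (embryonic day) on a C57Bl/6 background, with 1 library in each group and 500000 cells per sample. Mtf2 was immunoprecipitated from WT CD71+Ter119-/lo pro-erythroblasts and from WT CD71+Ter119high erythroblasts. H3K27me3 was immunoprecipitated from both fractions of WT embryos and of Pcl2 -/- embryos, called Mtf2-null here, in which the gene-targeted allele removes Mtf2 from every cell of the embryo, the supporting cells of the liver included. Each of the 4 combinations of fraction and genotype had an IgG control, and in WT cells of a fraction the Mtf2 and H3K27me3 libraries shared it. With 1 library in a group there was no replicate check and no test between conditions, and the 95% Wilson intervals printed beside shares reflect counting error alone. The files hold no expression values, so the sorted fractions could not be checked against their marker transcripts.

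To show what was bound, 200 bases around the summit, the position of the highest tag pile-up, are printed for 9 of the 1905 peaks. Coordinates are those of NCBIM37 (mm9), reading 5′ to 3′ on the plus strand, and CG pairs are in capitals. Gm8597 had the highest peak score, Cdkn1a the highest-scoring WT pro-erythroblast H3K27me3 peak over it, Capn9 the next highest-scoring erythroblast Mtf2 peak after Cdkn1a, and Narfl a summit only 6 bp from a TSS. Gm2244 was the highest-scoring peak with a CpG island-like composition. The last 4 were the highest-scoring peaks of sequence groups 1, 3, 4 and 5, which are defined with the sequence content.
Gm8597 peak, chr17:13607498-13607697, plus strand: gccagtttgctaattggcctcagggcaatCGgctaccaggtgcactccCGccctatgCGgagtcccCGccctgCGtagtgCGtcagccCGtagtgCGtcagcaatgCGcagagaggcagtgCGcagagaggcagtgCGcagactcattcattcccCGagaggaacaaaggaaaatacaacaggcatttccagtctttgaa
Cdkn1a peak, chr17:29241207-29241406, plus strand: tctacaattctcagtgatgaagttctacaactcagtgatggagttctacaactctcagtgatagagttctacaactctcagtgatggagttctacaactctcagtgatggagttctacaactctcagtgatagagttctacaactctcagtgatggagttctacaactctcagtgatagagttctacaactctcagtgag
Capn9 peak, chr8:127104885-127105084, plus strand: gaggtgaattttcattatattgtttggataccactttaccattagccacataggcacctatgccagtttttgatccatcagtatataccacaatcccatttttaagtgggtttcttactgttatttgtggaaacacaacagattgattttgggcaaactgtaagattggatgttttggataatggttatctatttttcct
Narfl peak, chr17:25913671-25913870, plus strand: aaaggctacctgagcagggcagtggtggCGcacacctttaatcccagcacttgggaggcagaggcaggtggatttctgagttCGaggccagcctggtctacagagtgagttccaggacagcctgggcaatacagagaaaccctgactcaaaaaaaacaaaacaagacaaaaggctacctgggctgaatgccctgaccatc
Gm2244 peak, chr14:20361844-20362043, plus strand: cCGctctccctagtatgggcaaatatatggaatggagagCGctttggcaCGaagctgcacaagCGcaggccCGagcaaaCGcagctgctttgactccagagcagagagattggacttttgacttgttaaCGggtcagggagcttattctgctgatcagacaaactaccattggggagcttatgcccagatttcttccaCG
9130204L05Rik peak, chr3:90898970-90899169, plus strand: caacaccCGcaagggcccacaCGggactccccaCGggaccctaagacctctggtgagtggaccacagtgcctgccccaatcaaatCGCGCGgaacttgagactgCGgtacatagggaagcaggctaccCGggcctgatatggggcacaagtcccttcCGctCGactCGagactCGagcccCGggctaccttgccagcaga
Optn peak, chr2:4986717-4986916, plus strand: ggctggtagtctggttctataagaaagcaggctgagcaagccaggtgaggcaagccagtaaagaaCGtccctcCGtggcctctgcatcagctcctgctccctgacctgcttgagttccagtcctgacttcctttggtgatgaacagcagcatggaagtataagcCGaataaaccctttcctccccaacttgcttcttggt
Rbm25 peak, chr12:84968798-84968997, plus strand: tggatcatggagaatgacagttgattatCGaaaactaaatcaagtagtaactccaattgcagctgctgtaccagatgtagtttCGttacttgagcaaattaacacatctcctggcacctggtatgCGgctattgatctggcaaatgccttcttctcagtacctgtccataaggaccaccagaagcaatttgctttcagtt
Cast peak, chr13:74950695-74950894, plus strand: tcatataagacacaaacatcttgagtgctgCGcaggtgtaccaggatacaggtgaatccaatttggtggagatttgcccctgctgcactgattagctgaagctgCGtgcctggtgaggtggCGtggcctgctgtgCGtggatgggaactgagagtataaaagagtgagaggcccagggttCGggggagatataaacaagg
The summit sequence at Gm8597 held 12 CG pairs in 200 bases and that of the group 1 peak at 9130204L05Rik held 13, whereas the summits at Cdkn1a and Capn9 held 0. The 9130204L05Rik peak was not typical of group 1: the 1 kb around its summit held 42 CG pairs, against a group median of 8. Gm8597 and Capn9 both belonged to group 2. The Cdkn1a summit was a tandem repeat: at a period of 23 bases, 86.4% of its bases matched the base one period further on, against 31.7% to 40.5% at the best period of the other 8 sequences.

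Peaks near a TSS were mostly narrow and of low score. Their median width was 1131 bp (range 262 to 17248 bp), their median tag count 42 (21 to 930), their median fold enrichment over the local IgG background 8.99 (3.88 to 44.7) and their median score 70.4 (50.01 to 1490). The score is the peak caller's p-value as a logarithm to base 10, multiplied by minus 10, so that a higher score means a smaller p-value. A score of at least 100 was reached by 601 peaks, or 31.5% (29.5% to 33.7%). The other autosomal Mtf2 peaks were wider, with a median width of 1444 bp, and scored a median of 81.4 at a similar median fold enrichment of 8.80. Peaks under 1 kb made up 41.4% (39.2% to 43.6%) of those near a TSS and 27.2% (26.7% to 27.8%) of the others. At the other end, 116 of the 1905 peaks were at least 5 kb wide, or 6.09% (5.10% to 7.25%), beside 5.46% (5.18% to 5.75%) of the others. All 1905 peaks had a false discovery rate of at most 0.31%, and together they covered 3.34 Mb and held 146720 tags, 0.506% of the 29009650 unique Mtf2 tags.

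None of the 5 highest-scoring peaks covered a TSS. The peak by Gm8597, a predicted gene, spanned chr17:13600873-13614408, scored 1490 at a fold enrichment of 8.74, and had its summit 10540 bp upstream of the TSS. At 2310061C15Rik the peak was 6539 bp wide and scored 1368, at Ttll4 7584 bp and 1246, at Nol7 7486 bp and 1223, and at the olfactory receptor gene Olfr1155 7526 bp and 1198. Every 25-base stretch of the 1 kb around these 5 summits occurred at more than 1 place in the genome, and a pair of direct repeat copies spaced 4998 to 6824 bp apart lay on either side of each summit.

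Fold enrichment picked out other peaks. The 5 highest were at Olfr270 (44.7), Taar6 (32.2), which encodes a trace amine receptor, Il15ra (32.04), a cytokine receptor subunit, Gpc6 (31.9), a cell-surface glypican, and Lyrm2 (30.4). Of these, 4 were narrow, between 1057 and 1224 bp, with 42 to 56 tags and scores of 87.9 to 124, and had 18.1% to 50.4% of their 25-mers at more than 1 place. The fifth, Lyrm2, was 5875 bp wide with 372 tags, and all of its 25-mers were repeated.

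Summits were sparse at the TSS itself. The median distance from a summit to the nearest TSS within reach of its peak was 3341 bp (95% order-statistic interval 3207 to 3459 bp), and 243 summits, or 12.8% (11.3% to 14.3%), lay within 1 kb of it. A TSS was covered by the body of 155 peaks, or 8.14% (6.99% to 9.45%). The summit lay upstream of the TSS in 1093 peaks, or 57.4% (55.1% to 59.6%). By 1 kb steps, 111 summits fell in the first kb upstream, 160, 186, 206 and 225 in the next 4 going outwards, and 132, 115, 143, 140 and 152 in the 5 steps downstream.

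**Figure D1:**
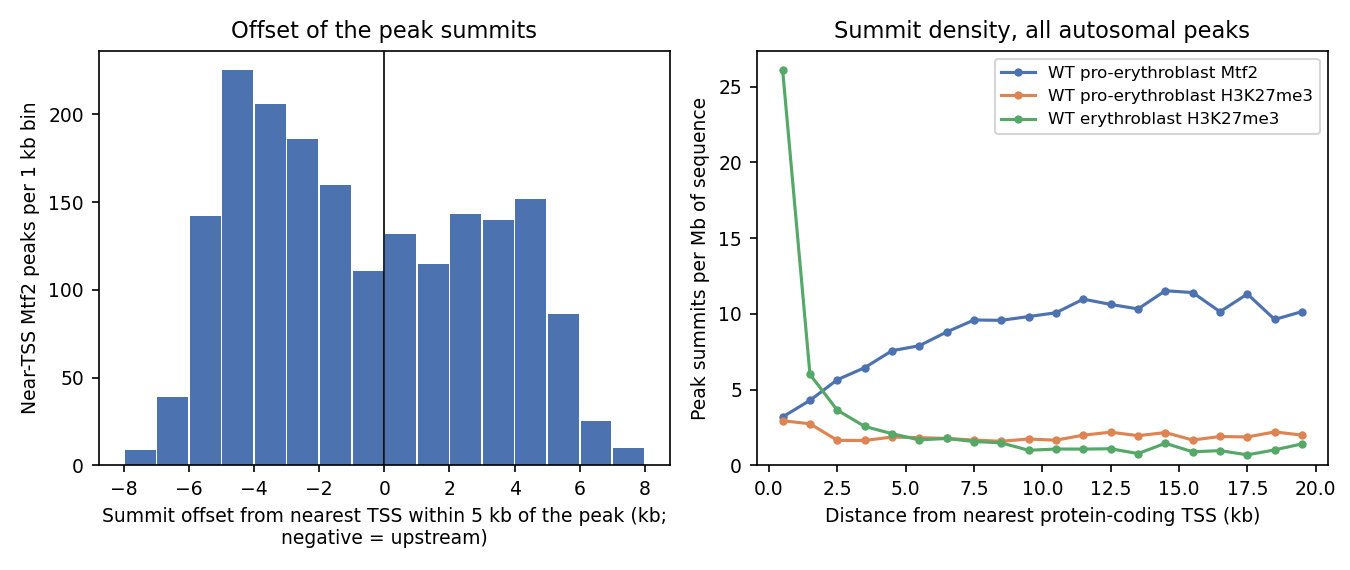
The left panel counts the summits of the 1905 near-TSS Mtf2 peaks by their offset from the TSS in kb (negative is upstream, 24 summits lie outside the axis), and the right panel gives peak summits per Mb of called sequence against the distance from the nearest TSS for all autosomal peaks of 3 lists. Mtf2 summits thin out towards the TSS, while WT erythroblast H3K27me3 summits rise to 26.1 per Mb within 1 kb.

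Counted over all autosomal sequence, Mtf2 summits occurred at 3.19 per Mb within 1 kb of a TSS, 4.29 per Mb at 1 to 2 kb, 7.57 at 4 to 5 kb and 10.1 at 10 to 11 kb, against 10.8 per Mb of the autosomes as a whole. WT erythroblast H3K27me3 ran the other way, from 26.1 per Mb within 1 kb to 2.09 at 4 to 5 kb, with 1.86 over the autosomes. WT pro-erythroblast H3K27me3 had 2.94 per Mb within 1 kb and 1.96 over the autosomes. Within 2 kb of a TSS the Mtf2 density was thus below its autosomal value and that of both H3K27me3 lists above theirs, while at 2 to 5 kb WT pro-erythroblast H3K27me3 had 1.64 to 1.87 per Mb, also below its autosomal value.

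By annotation, 131 summits (6.88%, 5.82% to 8.10%) fell in an exon of a protein-coding gene, 852 (44.7%, 42.5% to 47.0%) in an intron and 922 (48.4%, 46.2% to 50.6%) outside protein-coding genes. Since the rule selected on closeness to genes, the higher exon and intron shares than those of the other peaks (0.180% and 22.7%) follow from it. The 5 summits nearest a TSS were at Psma8 on chromosome 18 (0 bp), Narfl (6 bp downstream), Gm9742 (27 bp upstream), Ddit4l (29 bp upstream) and Dhx33 (30 bp upstream), and their fold enrichments were 7.28, 15.1, 11.7, 17.4 and 6.42. At the 5 kb limit, the last peaks inside were at Sntg1 and Klhl18, both 5000 bp from a TSS, with scores of 123 and 59.0, and the first outside were at Gm2974 (5007 bp) and Fstl1 (5011 bp), with scores of 54.1 and 51.9.

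Base composition at the peaks was unlike that of gene starts. A gene start here is the annotated 5′ end of a gene, whereas the peaks were chosen by the TSS of every transcript. In the 1 kb around the summit, median GC content was 45.3% (order-statistic interval 45.0% to 45.6%), against 44.4% at the other Mtf2 peaks and 55% around the starts of all 21418 genes. The median ratio of observed to expected CpG was 0.227 (quartiles 0.143 and 0.364), against 0.259 at the other peaks and 0.559 at gene starts. With limits of at least 50% GC and a ratio of at least 0.6, 46 peaks were CpG island-like, or 2.41% (1.82% to 3.21%), beside 2.92% (2.71% to 3.14%) of the other Mtf2 peaks and 45.1% (44.4% to 45.8%) of gene starts. Among the 243 peaks with a summit within 1 kb of a TSS the share was 4.94% (2.85% to 8.43%), with a median ratio of 0.261.

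**Figure D2:**
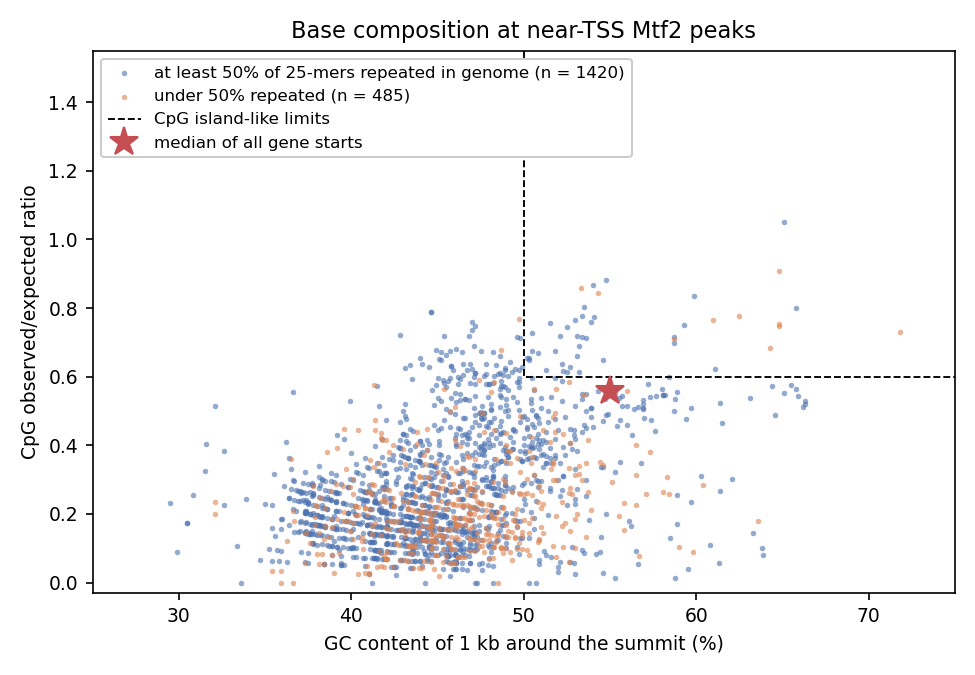
GC content (%) against the observed to expected CpG ratio in the 1 kb around each of the 1905 summits, coloured by the share of its 25-mers found at more than 1 place in the genome, with the limits for a CpG island-like composition as dashed lines and the median of all gene starts as a star. The cloud lies to the lower left of the star, and 46 peaks fall inside the limits.

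Of the 46 CpG island-like peaks, 12 had their summit within 1 kb of a TSS, 36 had at least 50% repeated 25-mers and 13 belonged to the 5 largest sequence groups. The 5 with the highest scores were at Gm2244 (709), Rbbp8 (679), Atoh7 (663), Adamts13 (455) and Bst1 (439), all in sequence group 2, all with 98.7% or more of their 25-mers repeated, and with summits 2496 to 7237 bp from a TSS. Of the 46, 3 overlapped WT pro-erythroblast H3K27me3 and 3 overlapped that of WT erythroblasts.

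Sequence content was the feature that most peaks had in common and that the rule did not use. Stretches of 25 bases were counted, the tag size that the file headers list for the peak caller, which need not be the read length. In the 1 kb around the summit, a median of 82.7% (quartiles 49.6% and 98.5%) of the 25-mers occurred at more than 1 place in the genome. The median was 93.5% at the other Mtf2 peaks, 0.922% at gene starts, 79.4% at WT pro-erythroblast H3K27me3 peaks and 1.03% at WT erythroblast H3K27me3 peaks. At least 50% of the 25-mers were repeated at 1420 of the 1905 peaks, or 74.5% (72.5% to 76.4%), against 89.1% (88.7% to 89.5%) of the other Mtf2 peaks and 7.57% (7.22% to 7.93%) of gene starts. The median 25-mer at a near-TSS peak had 43 copies in the genome, against 548 at the other peaks and 1 at gene starts. Which place a tag with several matches was given by the aligner was not stated in the sources used here, and the part of such placement in the peaks was not tested. Unique tags, after removal of duplicates by the peak caller, made up 34.6% of the tags of this Mtf2 library and 39.7% of those of the erythroblast Mtf2 library. In the 4 H3K27me3 libraries they made up 78.4% to 85.4%.

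Summit windows of different genes resembled each other. When windows were joined wherever 2 of them aligned at 80% identity or more over at least 500 bases, 1202 of the 1905 fell into 87 groups and 703 (36.9%, 34.8% to 39.1%) stood alone. The 5 largest groups held 389, 192, 136, 125 and 67 peaks, or 47.7% (45.5% to 49.96%) of all. Of the other autosomal Mtf2 peaks, 16989 (71.1%, 70.5% to 71.7%) matched one of these 5 groups best, so the same sequences also lay under most Mtf2 peaks more than 5 kb from a TSS. The groups were formed after the data were seen, and they rest on sequence alone, with no annotation of repeat families. As background, retrotransposons of the mouse genome exist in many copies, and those with long terminal repeats carry the same stretch in direct orientation at both ends.

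Group 1, with 389 peaks, had low scores (median 71.0), a median GC content of 42.0% and 25-mers with a median of 2464 copies. Its highest-scoring members were at 9130204L05Rik (729), Phf11 (667) and Wapal (316). A direct repeat on either side of the summit was found in 3 of the 389.

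Group 2, with 192 peaks, held 19 of the 20 highest-scoring peaks near a TSS and 63 of the 116 that were at least 5 kb wide. Its median width was 3898 bp, its median score 332 and its median CpG ratio 0.452, the highest of the 5. Direct repeats with a median copy length of 354 bp and a median spacing of 4977 bp (quartiles 4458 and 6761 bp) flanked the summit in 145 of the 192, or 75.5%. Over all 1905 peaks such flanking repeats were found in 322 (16.9%, 15.3% to 18.7%), against 21.1% (20.6% to 21.6%) of the other Mtf2 peaks and 0.658% (0.559% to 0.776%) of gene starts.

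Group 4, with 125 peaks, also carried direct repeats, in 72 peaks, with a median copy length of 493 bp and a narrow spread of spacings (median 5940 bp, quartiles 5904 and 5944 bp). Its median score was 128, and Rbm25, which encodes an RNA-binding protein, Gm13698 and Gm17611 had its highest scores, of 782, 776 and 720. Group 3, with 136 peaks, had the lowest CpG ratio of the 5, with a median of 0.110, and a direct repeat in 5 peaks. Group 5, with 67 peaks, had a median GC content of 48.7%, a median score of 113 and a direct repeat in 2 peaks.

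**Figure D3:**
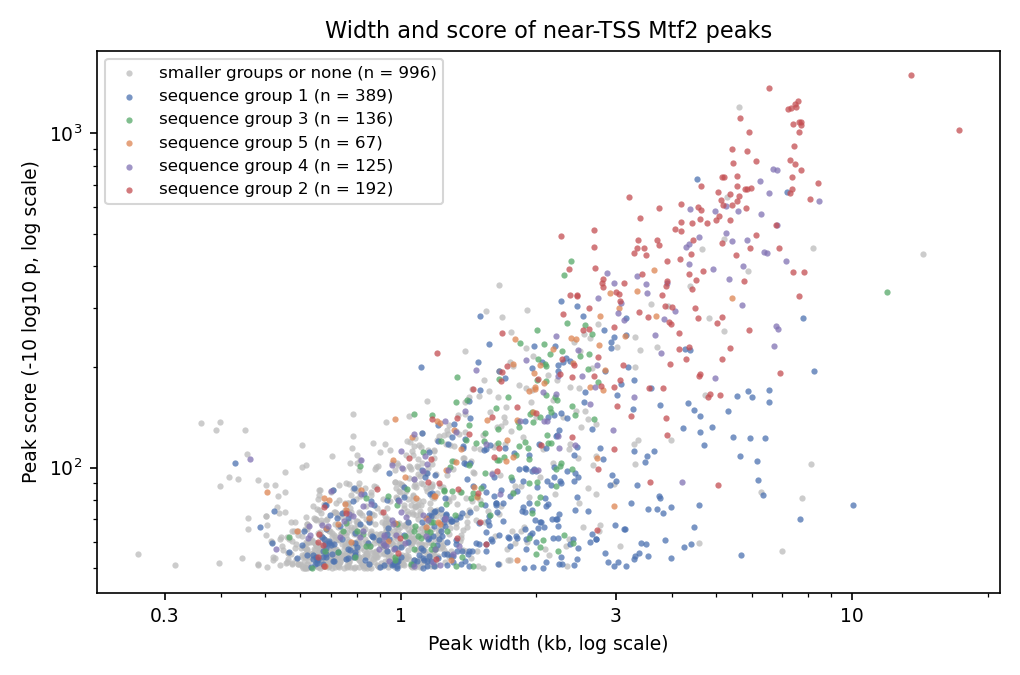
Peak width (kb, log scale) against peak score (log scale) for the 1905 near-TSS Mtf2 peaks, coloured by sequence group. Group 2 makes up most of the upper right, with a median width of 3898 bp and a median score of 332, and group 1 spreads along the bottom with a median score of 71.0.

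H3K27me3 was compared at the peaks in all 4 combinations of stage and genotype, by asking whether a peak of the respective H3K27me3 list shared at least 1 base. The WT pro-erythroblast list overlapped 167 of the 1905 Mtf2 peaks, or 8.77% (7.58% to 10.1%), and the list from Mtf2-null cells of that stage 2, or 0.105% (0.0288% to 0.382%). Here the WT list shared its IgG control with the Mtf2 list, and the Mtf2-null list had another. The part of the shared control was not tested. In WT erythroblasts 13 were overlapped, or 0.682% (0.399% to 1.16%), and in Mtf2-null erythroblasts 31 were, or 1.63% (1.15% to 2.30%). None of the 4 lists reached 1697 of the 1905 peaks. The WT pro-erythroblast overlaps and the Mtf2-null overlaps were at different peaks: 162 Mtf2 peaks were overlapped in WT pro-erythroblasts alone, 5 in WT pro-erythroblasts and WT erythroblasts, 8 in WT erythroblasts alone, 2 in Mtf2-null pro-erythroblasts alone and 31 in Mtf2-null erythroblasts alone.

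The same lists were laid over the peaks more than 5 kb from a TSS. The other 23900 autosomal Mtf2 peaks were overlapped at 9.91% by the WT and 0.0753% by the Mtf2-null list of pro-erythroblasts, and at 0.335% by the WT and 2.79% by the Mtf2-null list of erythroblasts. The intervals of near-TSS and other peaks overlapped for both pro-erythroblast lists, barely for WT erythroblasts (0.399% to 1.16% beside 0.269% to 0.416%), and not for Mtf2-null erythroblasts (1.15% to 2.30% beside 2.59% to 3.01%), where the near-TSS share was the lower. These intervals count peaks of 1 library per list and carry no replicate error.

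**Figure D4:**
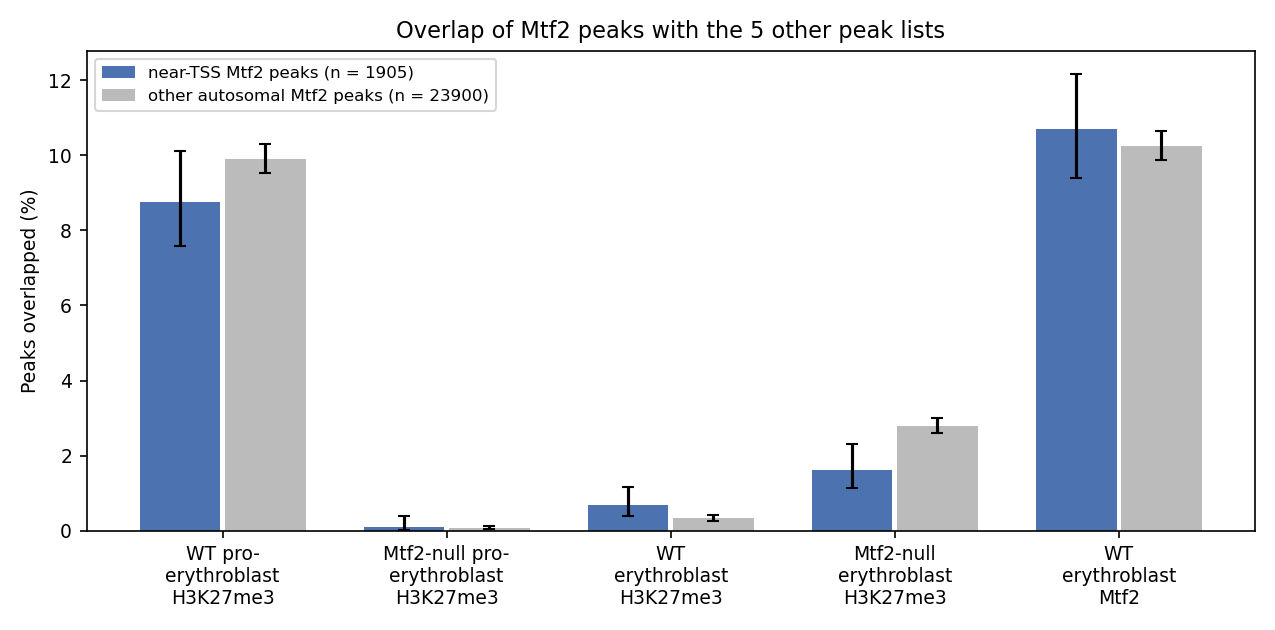
Percent of the 1905 near-TSS and of the 23900 other autosomal Mtf2 peaks overlapped by at least 1 base by a peak of each of the 5 other lists, with 95% Wilson intervals. The bars for WT pro-erythroblast H3K27me3 and erythroblast Mtf2 stand near 10% in both sets, and the other 3 H3K27me3 lists reach at most 2.79%.

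The H3K27me3 libraries and lists differed in depth and length. WT pro-erythroblasts gave 18945784 unique tags and their Mtf2-null counterparts 37026535, WT erythroblasts gave 30054186 and theirs 67169672, and the lists, in that order, held 4992, 1407, 4490 and 5791 peaks. In the Mtf2-null pro-erythroblast list every peak had an estimated false discovery rate of 100%, and the WT pro-erythroblast list ran from 0% to 100%. Their IgG controls held 16898992 unique tags for WT and 39667267 for Mtf2-null pro-erythroblasts, and 12345800 and 20646036 for WT and Mtf2-null erythroblasts. The part of ChIP and IgG depth in the differences was not tested. Near-TSS Mtf2 peaks took up few of the H3K27me3 peaks in turn: 4.07% of the autosomal WT pro-erythroblast list, 0.150% of the Mtf2-null pro-erythroblast list, 0.292% of the WT erythroblast list and 0.624% of the Mtf2-null erythroblast list. Of the 2865 WT erythroblast H3K27me3 peaks within 5 kb of a TSS, 12 overlapped a pro-erythroblast Mtf2 peak.

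The WT pro-erythroblast overlaps were concentrated in group 2. It held 74 of the 167, or 44.3%, with 38.5% (31.9% to 45.6%) of its 192 peaks overlapped, against 4.37% (2.75% to 6.89%) in group 1, 9.56% (5.67% to 15.7%) in group 3, 13.6% (8.67% to 20.7%) in group 4, 5.97% (2.35% to 14.4%) in group 5 and 4.41% (3.12% to 6.19%) of the 703 peaks in no group. Group 2 peaks more than 5 kb from a TSS had a share of 35.6% (34.0% to 37.2%) of 3329. The share also rose with width, from 4.18% (2.99% to 5.82%) of peaks under 1 kb to 36.2% (28.0% to 45.3%) of those of at least 5 kb, and group and width were not separated. The Mtf2-null erythroblast overlaps lay elsewhere: 26 of the 31 were in group 1, where 6.68% (4.602% to 9.61%) of peaks were overlapped, beside 5.75% (5.31% to 6.21%) of the group 1 peaks more than 5 kb from a TSS. All 31 had at least 50% repeated 25-mers. Among the 485 peaks with fewer repeated 25-mers, 21 (4.33%, 2.85% to 6.53%) were overlapped in WT pro-erythroblasts and 6 (1.24%, 0.568% to 2.67%) in WT erythroblasts. Mtf2-null pro-erythroblasts gave 2 of the 485 (0.412%, 0.113% to 1.49%), and Mtf2-null erythroblasts 0, a count that allows up to 0.619%. In erythroblasts the order of the genotypes was thus turned in this subset, as it was among peaks within 1 kb of a TSS (1.86% in WT and 1.16% in Mtf2-null cells, 8 and 5 of 430 peaks). Both turns rest on few peaks, and in the subset the intervals overlapped (0.568% to 2.67% in WT, 0% to 0.786% in Mtf2-null cells).

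Among single sites, the strongest WT pro-erythroblast H3K27me3 lay by Cdkn1a, which encodes the cell cycle inhibitor p21. The Mtf2 peak at chr17:29237978-29246188 was 8211 bp wide, with 727 tags, a fold enrichment of 7.78 and its summit 6154 bp downstream of the TSS, outside protein-coding genes. The WT pro-erythroblast H3K27me3 peak over it held 480 tags at a fold enrichment of 12.6 and a score of 330, the highest at any near-TSS Mtf2 peak, and the erythroblast Mtf2 peak held 268 tags at a fold enrichment of 10.7 and a score of 263, also the highest. No H3K27me3 peak was listed there in WT erythroblasts or in either Mtf2-null fraction. The summit is the tandem repeat printed for Cdkn1a, and 85.3% of its 25-mers occurred at more than 1 place. The next 4 WT pro-erythroblast H3K27me3 scores were 174 at Vps11, a vesicle-tethering subunit, 141 at Rgnef, 141 at Olfr1155 and 129 at Rbm12, all in group 2.

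Of the 13 peaks overlapped in WT erythroblasts, 3 were CpG island-like, and these had the highest H3K27me3 scores. The highest H3K27me3 scores were 198 at Hspa1a, which encodes the inducible heat shock protein Hsp70, 172 at Bspry and 120 at Hapln4, which encodes a hyaluronan link protein, with 138, 82 and 92 H3K27me3 tags. The Mtf2 peaks there held 77, 28 and 21 tags, with summits 838 bp downstream, 227 bp upstream and 1076 bp downstream of the TSS, and the CpG ratio was 1.05, 0.859 and 0.754. Hspa1a and its neighbouring near-identical copy Hspa1b, named after its values were seen, both carried an Mtf2 peak and WT pro-erythroblast H3K27me3 (scores 52.2 and 84.3). As 95.7% and 88.6% of the 25-mers at their summits were repeated, tags could be shared between the copies. Hapln4 also had WT pro-erythroblast H3K27me3 (score 76.5), with 2.46% repeated 25-mers. Neither Hspa1a, Bspry nor Hapln4 had an H3K27me3 peak in Mtf2-null cells at the Mtf2 peak. The 2 peaks with Mtf2-null pro-erythroblast H3K27me3 were at Hsf5 (score 94.7), of the heat shock factor family, and Klraq1 (52.3), and neither had a WT H3K27me3 peak. The highest Mtf2-null erythroblast H3K27me3 scores were at Olfr371 (159), Aadat (128) and Gm9372 (113), all 3 in group 1.

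At the later stage, Mtf2 itself was called at 204 of the 1905 peaks in erythroblasts, or 10.7% (9.40% to 12.2%), close to the 10.3% (9.87% to 10.6%) of the other Mtf2 peaks. The erythroblast list was shorter, with 5309 peaks from 15669899 unique tags, and was called against another IgG library. Its peaks had estimated false discovery rates of 6.94% to 100%, against at most 0.31% in the pro-erythroblast Mtf2 list. Group 2 held 92 of the 204, or 45.1%, and group 4 held 29. In group 2, 47.9% (41.0% to 54.95%) of the peaks near a TSS and 36.6% (34.9% to 38.2%) of those farther than 5 kb from one were shared. Of the 116 peaks of at least 5 kb, 52.6% (43.6% to 61.4%) were shared, against 3.04% (2.05% to 4.49%) of those under 1 kb. Of the 167 peaks with WT pro-erythroblast H3K27me3, 56 had erythroblast Mtf2 (33.5%, 26.8% to 41.0%), against 148 of the other 1738 (8.52%, 7.29% to 9.92%). After Cdkn1a, the highest erythroblast Mtf2 scores were at Capn9 (174), a calpain protease, Spnb1 (163), the spectrin beta chain of the red cell skeleton, Scp2 (152), a sterol carrier, and Olfr194 (151). The Spnb1 peak, at chr12:77754004-77755681, had its summit in an intron and belonged to group 2. It held 80 Mtf2 tags in pro-erythroblasts and 44 in erythroblasts, with a WT pro-erythroblast H3K27me3 peak (score 116) over it.

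At the level of genes, 725 of 21418 (3.39%) had a WT pro-erythroblast H3K27me3 peak within 5 kb of a TSS, 270 (1.26%) had one in Mtf2-null pro-erythroblasts, 2562 (12.0%) in WT erythroblasts and 341 (1.59%) in Mtf2-null erythroblasts, and 314 (1.47%) had an erythroblast Mtf2 peak. Among the 1786 genes with a pro-erythroblast Mtf2 peak the shares were 9.74% (8.45% to 11.2%), 1.46% (0.995% to 2.12%), 6.55% (5.49% to 7.79%), 3.58% (2.82% to 4.55%) and 9.29% (8.03% to 10.7%). The share with WT erythroblast H3K27me3 was thus lower than the 12.5% (interval 12.00% to 12.9%) of genes without an Mtf2 peak, and the WT pro-erythroblast share was higher than their 2.81% (2.58% to 3.05%). Of the 174 genes with both Mtf2 and H3K27me3 in WT pro-erythroblasts, 167 (96.0%, 91.9% to 98.0%) had no H3K27me3 peak in Mtf2-null pro-erythroblasts, beside 519 of the 551 such genes without an Mtf2 peak (94.2%, 91.9% to 95.9%). Of the 117 with WT erythroblast H3K27me3, 116 (99.1%, 95.3% to 99.8%) had none in Mtf2-null erythroblasts, beside 2415 of 2445 without an Mtf2 peak (98.8%, 98.3% to 99.1%). Both pairs of intervals overlapped, so absence in Mtf2-null cells was not shown to be particular to genes with an Mtf2 peak. WT H3K27me3 at both stages was found at 24 of the 174.

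Most genes had a single peak. Of the 1905 peaks, 1749 touched the window of 1 gene, 131 of 2 genes and 25 of 3 or more, and 245 genes had at least 2 peaks. Flg, which encodes the skin barrier protein filaggrin and is annotated as 5 gene models here, had the most, with 6 peaks along chr3:93084196-93095443. Their scores ran from 56.2 to 225, GC content from 64.6% to 66.3%, and each 25-mer had a median of 15 copies. Ankrd22 and Arhgap8 had 4 peaks each, all in group 4. By chromosome, the share of genes with a peak ranged from 5.80% on chromosome 19 to 11.9% on chromosome 14.

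Gene families were read against the 8.34% of all genes. Sensory receptors had somewhat larger shares: 106 of 1106 olfactory receptor genes (9.58%, 7.99% to 11.5%), 39 of 327 vomeronasal receptor genes (11.9%, 8.85% to 15.9%) and 9 of 53 taste and trace amine receptor genes (17.0%, 9.20% to 29.2%). The intervals of the last 2 lay above 8.34%, and that of the olfactory receptors did not. Among the 112 peaks at olfactory receptor genes, 45 were of group 1 and 17 of group 2, and 10 had WT pro-erythroblast H3K27me3. Over all 1905 peaks these shares were 20.4%, 10.1% and 8.77%. The highest scores were 1198 at Olfr1155, 1079 at Olfr194 and 645 at Olfr1055, and among vomeronasal receptors 321 at Vmn1r101, 178 at Vmn1r48 and 157 at Vmn1r151. At taste and trace amine receptors the highest were the peak at Taar6, which also touches Taar7a (87.9), and that at Tas2r144 (78.5).

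Families with shares near or just above the background were keratin and cornified envelope genes, with 16 of 138 (11.6%, 7.26% to 18.005%), replication-dependent histones, with 8 of 67 (11.9%, 6.18% to 21.8%), lectin-like receptors, with 7 of 60 (11.7%, 5.77% to 22.2%), synaptic adhesion genes, with 4 of 42 (9.52%, 3.77% to 22.1%), and Zfp zinc finger genes, with 29 of 362 (8.01%, 5.64% to 11.3%). The highest-scoring histone peaks were at Hist1h4m (294) and between Hist2h2bb and Hist2h3b (116), both with erythroblast Mtf2. Among Zfp genes Zfp69 (739), Zfp828 (585) and Zfp575, whose peak lies nearer Ethe1 (465), had the highest scores. On the list of lectin-like receptors the highest were at Clec4a3 (356), Clec2g (108) and Clec16a (78.4). The genes with a peak on the synaptic adhesion list were Csmd1 (75.2), Lrrtm4 (66.1), Ctnna3 (54.9) and Cntn2 (50.7). Genes with predicted-gene names beginning with Gm had a share of 16.6% (14.96% to 18.3%, 308 of 1858).

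Among lists of developmental regulators that PRC2 is best known to bind, only the developmental transcription factors had an interval below 8.34%. Of 124 developmental transcription factor genes, among them the Pax, Lhx, Dlx, Irx, Nkx, Fox, Sox, Tbx and Gata families, 1 had a peak (0.806%, 0.143% to 4.43%). It was Lhx1, a LIM homeobox gene, with 23 tags, a score of 50.1 and no H3K27me3 peak over it. WT erythroblast H3K27me3 lay near a TSS of 83 of the 124 (66.9%), beside 12.0% of all genes. WT pro-erythroblast H3K27me3 lay near 35 (28.2%), beside 3.39% of all genes. Of 40 Hox genes, 1 had a peak, Hoxc10 (2.50%, 0.443% to 12.9%), with 27 Mtf2 tags and a WT erythroblast H3K27me3 peak of score 89.5 over it. WT erythroblast H3K27me3 lay near 31 of the 40 (77.5%), and WT pro-erythroblast H3K27me3 near 2 (5%, beside 3.39% of all genes). Of 19 Wnt ligand genes 0 had a Mtf2 peak, a count that allows up to 15.8%. Of 39 other Wnt pathway genes 0 did, allowing up to 7.69%. The upper Wilson bounds were 12.9% for Hox genes, 16.8% for Wnt ligands and 8.97% for the other Wnt genes. The shares of these lists could thus not be told from the 8.34% of all genes. In WT erythroblasts 12 of the 19 and 18 of the 39 had H3K27me3 (63.2% and 46.2%, beside 12.0% of all genes). In WT pro-erythroblasts, the stage of the Mtf2 list, 1 and 2 had it (5.26% and 5.13%, beside 3.39% of all genes).

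**Figure D5:**
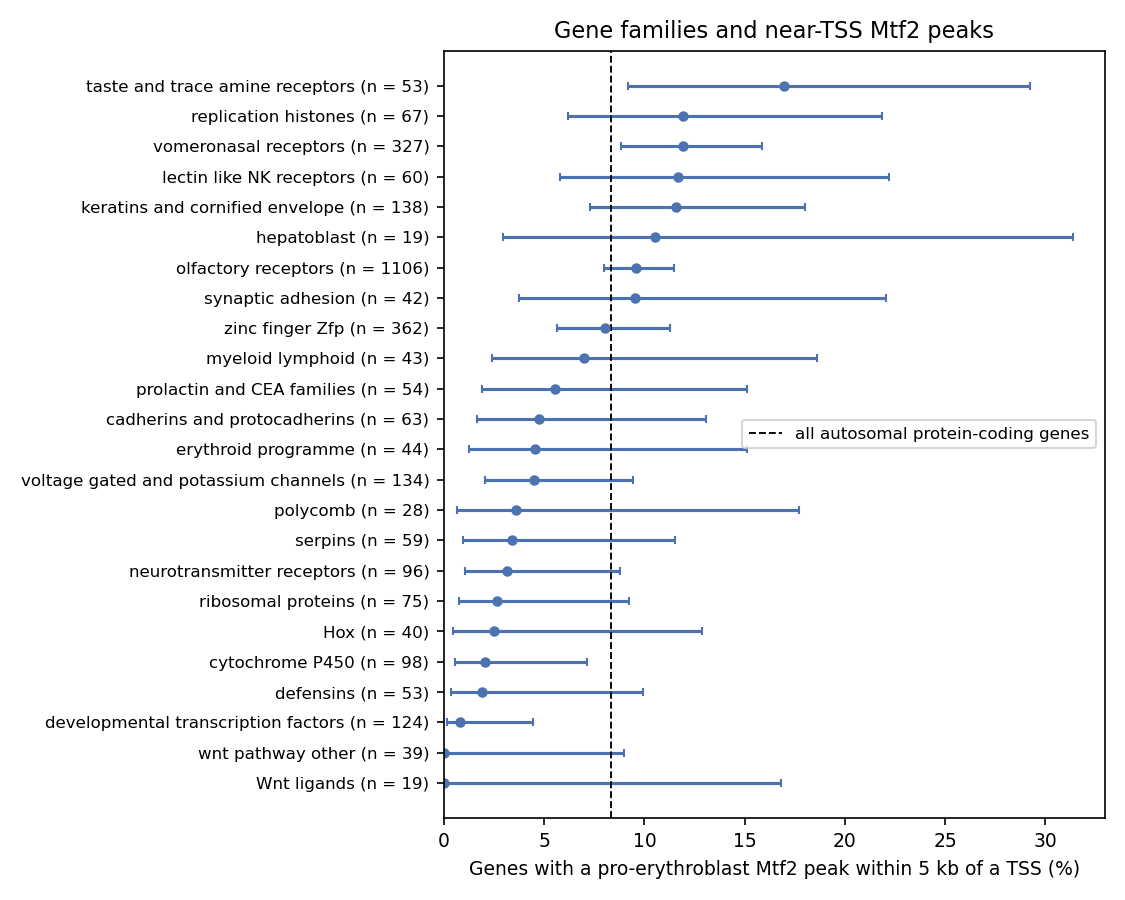
Percent of the genes of each of 24 lists with a pro-erythroblast Mtf2 peak within 5 kb of a TSS, with 95% Wilson intervals, and the 8.34% of all autosomal protein-coding genes as a dashed line. Sensory receptor lists lie to the right of the line, up to 17.0%, and Wnt genes and developmental transcription factors at the left, from 0% to 0.806%. The intervals of both Wnt lists cross the line.

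Other lists with small shares were cytochrome P450 genes (2 of 98, 2.04%), defensins (1 of 53, 1.89%), ribosomal proteins (2 of 75, 2.67%), neurotransmitter receptors (3 of 96, 3.12%), serpins (2 of 59, 3.39%), voltage-gated and potassium channels (6 of 134, 4.48%), cadherins and protocadherins (3 of 63, 4.76%) and the prolactin and CEA families (3 of 54, 5.56%). The upper bounds of their intervals lay between 7.14% for cytochrome P450 genes and 15.1%, so that of these lists the cytochrome P450 interval alone stayed below 8.34%. Their highest-scoring peaks were at Cyp4a32 (284), Defb2 (54.4), Rps27l (74.0), Grin1 (69.9), Serpina1d (112), Kcnk15 (595), Pcdhb6 (78.5) and Ceacam2 (478), and those at Kcnk15 and Ceacam2 were in group 4 with WT pro-erythroblast H3K27me3 and erythroblast Mtf2.

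For genes of the blood lineages the shares could not be told from the 8.34% of all genes, which lay inside both intervals. Of 44 erythroid genes, 2 had a peak (4.55%, 1.26% to 15.1%): Spnb1 and Slc25a38, a mitochondrial carrier needed for haem synthesis, whose better peak held 28 tags at a score of 65.2. Of 43 myeloid and lymphoid genes 3 did (6.98%, 2.40% to 18.6%): Kit, the receptor for stem cell factor, Itgax, the integrin CD11c, and Sfpi1, which encodes the myeloid regulator PU.1. The Kit peak with the higher score, 227, had its summit in an intron, 2064 bp upstream of a TSS. A second Kit peak covered a TSS, with a score of 98.2. As the TSS of every transcript were used, such a TSS can lie inside its gene. At Itgax the score was 107, with the summit also in an intron. At Sfpi1 it was 54.95, with the summit 253 bp upstream of the TSS in sequence with 5.43% repeated 25-mers. Of 19 hepatoblast genes 2 did (10.5%, 2.94% to 31.4%), among them the fetal liver protein gene Afp (57.0), and of 28 Polycomb genes 1 did (3.57%, 0.633% to 17.7%), Cbx7, with 2 peaks of scores 164 and 103. No H3K27me3 peak overlapped the peaks at Slc25a38, Kit, Itgax, Sfpi1, Afp or Cbx7 in any of the 4 lists. The study drafted its erythroid network of 461 genes from CD71+Ter119+ cells, the later stage, using Mtf2 and H3K27me3 near promoters together with expression. The list was chosen on these samples and is so no independent evidence. Of the 461 genes, 31 had a near-TSS pro-erythroblast Mtf2 peak (6.72%, 4.78% to 9.39%), the highest scores being at Pde3b (1188), H1fx (458) and Cdkn1a (453). An erythroblast Mtf2 peak within 5 kb of a TSS was found at 4 of the 461 (0.868%), beside 1.47% of all genes. WT erythroblast H3K27me3 was found at 350 (75.9%), beside 12.0% of all genes. The study annotated its peaks with PAVIS and GREAT, and the part of that difference in the low Mtf2 count was not tested.

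Peaks in unique sequence were few. At 29 of the 1905 peaks (1.52%, 1.06% to 2.18%) under 10% of the 25-mers were repeated, against 0.264% (0.206% to 0.337%) of the other Mtf2 peaks. Their scores were low (median 54.7, range 50.1 to 145), 13 had the summit within 1 kb of a TSS, 11 lay in exons and 5 were CpG island-like. The highest scores were at Mll1, which encodes a histone H3 lysine 4 methyltransferase (145), and Wdtc1 (113). Of the 29, Hapln4 alone had WT H3K27me3, Hsf5 alone had Mtf2-null H3K27me3, and 0 had erythroblast Mtf2, a count that allows up to 10.3%. These 29 were set apart after their values were seen.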

How the data were processed

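ChIP-seq of 10 libraries was analysed, 6 of them ChIP and 4 IgG. Per the submitters' processing notes, the authors used Bowtie2 2.2.3, the mm9 build and MACS 1.3.7. The file headers list an IgG file as the control of every peak list, a cutoff of 1e-05 for p, 300 as band width, 32 as model fold and 25 as tag size. The header file names carry the words masked and encBL, and what was masked is not given in the sources used here. The methods state replicates of 2, and pooling is not stated. The deposited tag counts are whole tags in a peak, which the authors did not scale. The deposited fold enrichment is a ratio of ChIP to local IgG background by the authors. The deposited score is the authors' p-value as a base 10 logarithm multiplied by minus 10, and the deposited false discovery rate is a percent.

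Coordinates are 1-based on NCBIM37, and TSS came from every transcript of protein-coding genes in GENCODE M1. Overlap meant at least 1 shared base. Copies of 25-mers were counted on both strands over the whole assembly. Windows of 1 kb were grouped with BLAST 2.17.0 at 80% identity over 500 bases. Direct repeats had copies of 250 to 800 bases, at least 150 shared 15-mers and a spacing of 3 to 8 kb, within 8 kb of the summit. Computation used Python 3.11.15 and pandas 2.3.3. The steps were tested on simulated data. Intervals are 95% Wilson intervals, and a share of 0 is given with the share that 3 counts make. No test was run, since each group had 1 library.

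Peaks were named by fixed rules: the highest scores or folds, partner scores, TSS distance, CpG content, peaks per gene and family, and the 5 kb limit. A peak was named by the gene of its nearest TSS within 5 kb. The members and lists were chosen with earlier results of these data known. Older symbols were matched through RefSeq names of GRCm38 for 3 listed genes. Alternatives changed the score minimum, the window, the TSS set, the overlap rule, the composition window and limits, and the share of repeated 25-mers. The IgG libraries had no peak list and entered through the deposited values. One gene that the naming rule picks is not reported here.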

Additional observations from a re-analysis of the deposited data

Results flagged for a closer look

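The share of the 1905 near-TSS Mtf2 peaks with H3K27me3 moved in opposite directions with genotype in the 2 stages. The Mtf2-null minus WT difference was -8.66 percentage points in pro-erythroblasts (2 against 167 peaks) and 0.945 percentage points in erythroblasts (31 against 13 peaks). With 1 library per group, whether the stages differ was not tested. The Mtf2-null ChIP libraries were deeper in both stages, at 37026535 against 18945784 and 67169672 against 30054186 unique tags. So were their IgG controls, at 39667267 against 16898992 and 20646036 against 12345800 unique tags. In pro-erythroblasts the WT list, unlike the Mtf2-null list, shared its IgG control with the Mtf2 list. The parts of depth and of the shared control were not tested. Among the 485 peaks with under 50% repeated 25-mers, chosen after the data were seen, the counts were 2 against 21 in pro-erythroblasts and 0 against 6 in erythroblasts, so there the Mtf2-null count was the lower in both. With a 1 kb window around the TSS the erythroblast shares were also reversed, at 1.16% for Mtf2-null against 1.86% for WT, on 5 and 8 of 430 peaks.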

How the results depend on the processing

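Of 60 alternatives, 23 kept their value within 1.5 times for a count or within the interval for a share or median, and 37 did not. At a score of at least 100 there were 601 near-TSS peaks at 586 genes. With windows of 1, 2 and 10 kb there were 430, 755 and 3766 peaks at 426, 740 and 3340 genes.

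At a score of at least 100 in both lists the overlap with WT pro-erythroblast, Mtf2-null pro-erythroblast, WT erythroblast and Mtf2-null erythroblast H3K27me3 and with erythroblast Mtf2 was 2.83%, 0%, 0.166%, 0.166% and 3.66%. With at least 50% of the peak covered, WT pro-erythroblast H3K27me3, Mtf2-null erythroblast H3K27me3 and erythroblast Mtf2 gave 3.62%, 1.05% and 3.67%, and with a partner within 1 kb Mtf2-null erythroblast H3K27me3 gave 2.36%. A 1 kb window gave 1.86% for WT erythroblast H3K27me3 and 6.98% for erythroblast Mtf2. With the summit inside the window, WT pro-erythroblast H3K27me3 gave 7.20% and erythroblast Mtf2 8.41%. Under 50% repeated 25-mers, chosen after the data were seen, the 5 shares were 4.33%, 0.412%, 1.24%, 0% and 2.47%.

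The median distance was 3944 bp at a score of at least 100 and 3476 bp with TSS of protein-coding transcripts only, where 9.65% and 10.7% of summits lay within 1 kb. CpG island-like shares were 4.83% at a score of at least 100, 4.19% in a 1 kb window and 0.735% at stricter limits of 55% GC and a ratio of 0.65, and median GC was 46.5% and 46.7% under the first 2. The largest sequence group held 1268 peaks at 300 aligned bases and 251 at 800, also chosen after the data were seen, so group sizes depend on that limit.

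No paired analysis was possible because each group had 1 library. Under all 6 alternatives to the overlap, WT exceeded Mtf2-null pro-erythroblasts. In erythroblasts Mtf2-null exceeded WT as in the main result under 3, equalled it at a score of at least 100 and was below it with a 1 kb window (1.16% against 1.86%) and under 50% repeated 25-mers. The overlaps other than those with WT pro-erythroblast H3K27me3 and erythroblast Mtf2 rest on 2 to 31 peaks, and the part of depth was not tested.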
